A study of Xenopus tropicalis with 3 samples.

Results

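Cartilage owes its stiffness to a matrix in which collagen fibrils hold in place a hydrated gel of proteoglycan. Aggrecan (acan) binds along hyaluronan, link protein (hapln1) locks that bond, matrilin and thrombospondin family proteins (matn1, comp) join the gel to the fibrils, and smaller proteins attach cells to the matrix (chad) or are secreted by chondrocytes into it (ucma). Frogs end their backbone in a single bony rod, the urostyle, which is built partly on a cartilage template. The question asked here was where accessible chromatin lay around these 6 genes in the urostyle of Xenopus tropicalis at stage 65.

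ATAC-seq, which reads out the places where a transposase can insert adapters into DNA, gave the accessible sites. Stages 56, 61 and 65 had 1 library each, all from urostyle tissue with no treatment or genotype named in the labels, and results below come from stage 65. Its peak list names no build and was taken, from its chromosome extents, to share the coordinates of the gene table used here. The 6 genes acan, chad, comp, hapln1, matn1 and ucma were chosen by name, out of 21749 protein-coding genes on chromosomes 1 to 10. Earlier results of these data were known when the 6 genes were chosen. Their locus is the annotated gene with 20 kb to each side, and the loci held 91 of the 311625 stage 65 peaks. The fold of a peak is the authors' ratio of fragments piled up at the summit to the background of the same library. It was deposited in whole steps of 0.150, from which the summit pileup was recovered, with a background of 5.68 fragments at each position. Intervals given for a fold are exact Poisson 95% intervals of that pileup and cover counting error only. With 1 library there is no replicate error and no test between stages or genes, and in whole tissue a site open in few cells cannot be told apart from one weakly open in many.

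The gene table gives no strand, exons or untranslated regions, so the lower coordinate of a gene is called its left end and the higher its right end, and either can be the start of transcription. A peak is at a gene end when it overlaps the 1 kb to either side of that end, inside when it overlaps the gene elsewhere, and otherwise in a flank. The labelled tissue could not be checked with such peaks. A gene-end peak was present at 5 of 7 chondrocyte marker genes, 3 of 3 osteoblast, 3 of 3 muscle, 3 of 3 notochord, 2 of 2 neuron and 2 of 2 blood genes, and at 85.7% of all coding genes. The chondrocyte genes include acan, without such a peak, and matn1, with one, which are also members of the set described here.

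The 6 loci gave an uneven picture: peaks covered most of the chad locus and little of the other 5. Peaks covered 69.4% of the chad locus. They covered 12.2% of the matn1 locus, 10.1% at hapln1, 8.91% at ucma, 8.28% at acan and 7.90% at comp, against a median of 17.9% over the loci of all coding genes (interquartile range 11.8% to 31.9%). Ranked among all coding genes, chad stood at percentile 97.9 for coverage, and the other 5 between percentile 8.65 (comp) and percentile 26.7 (matn1). The highest fold in the locus was 10.9 at chad, at percentile 63.4, and so inside the interquartile range of coding genes (5.09 to 16.02, median 7.64). It was 5.54 at hapln1, 5.24 at comp, 4.04 at both acan and matn1 and 3.74 at ucma, between percentile 3.03 (ucma) and percentile 31.2 (hapln1). Of the 73.7 kb covered by peaks in the 6 loci together, 48.3% lay in the chad locus.

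**Figure D1:**
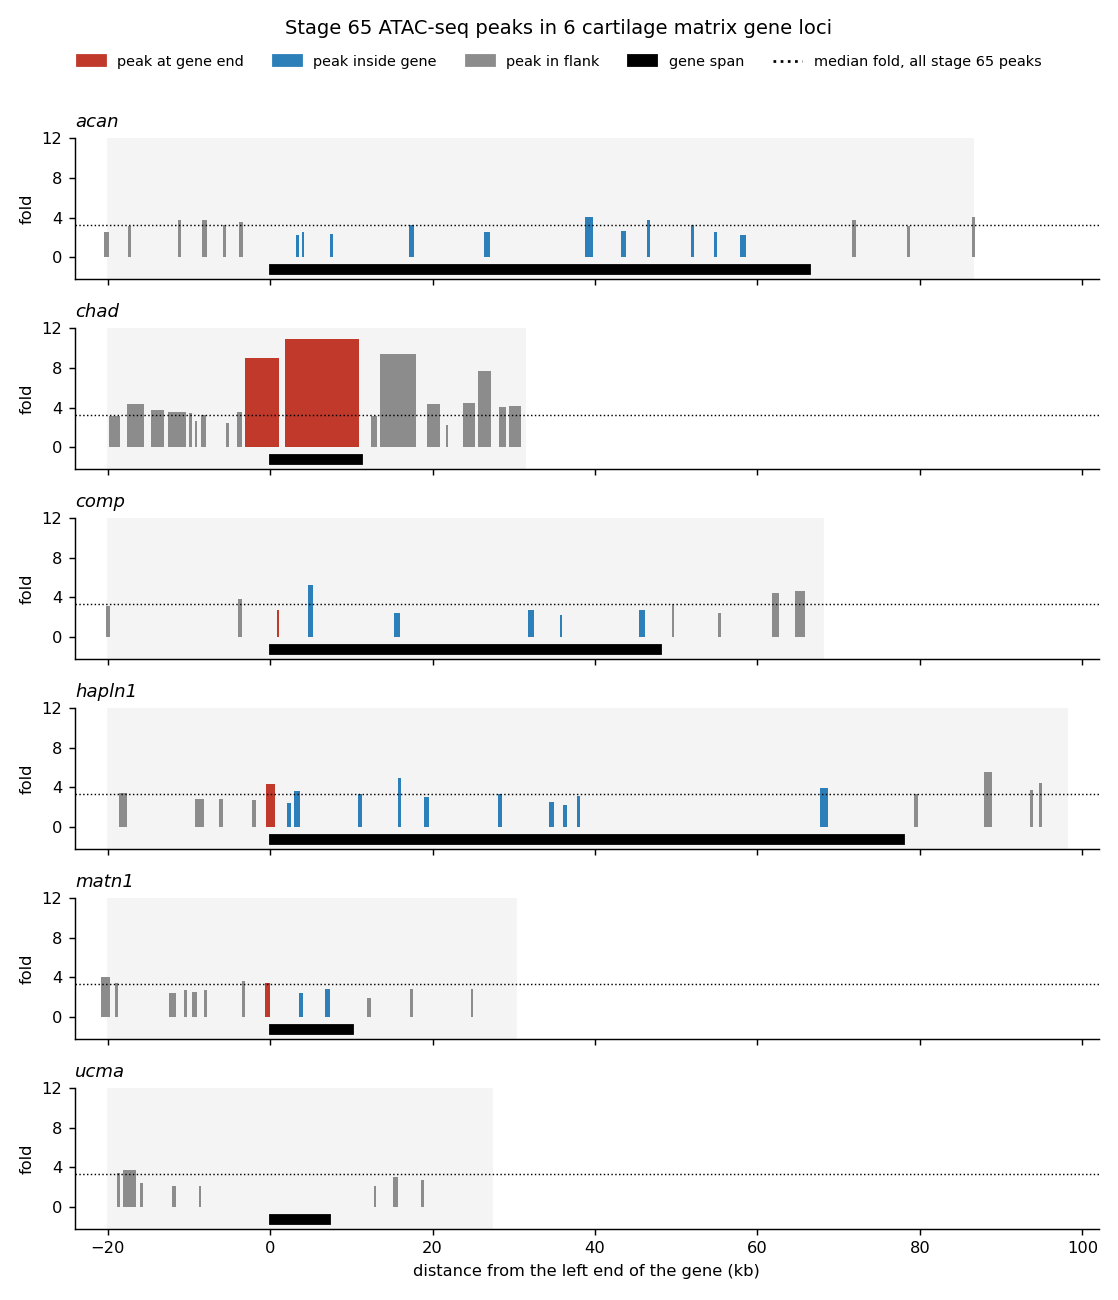
Peaks of the stage 65 library in the 6 loci, as fold over background (vertical axis) against distance from the left end of the gene in kb, with peak widths to scale and the shaded area marking the gene and its 20 kb flanks. Peaks cover 69.4% of the chad locus and reach a fold of 10.9 there. No peak of the other loci passes a fold of 5.54, and the ucma gene holds no peak.

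The number of peaks in a locus gave a less extreme contrast. There were 20 peaks at acan, 19 at chad, 19 at hapln1, 13 at matn1, 12 at comp and 8 at ucma. Per 10 kb of locus this came to 3.70 peaks at chad, 2.59 at matn1, 1.88 at acan, 1.69 at ucma, 1.61 at hapln1 and 1.36 at comp, against a median of 2.42 over all coding genes. Chad stood at percentile 87.9 of coding genes for this density. The median fold was 3.74 at chad, 3.29 at hapln1, 3.22 at acan, 2.92 at comp, 2.84 at matn1 and 2.55 at ucma. The median width was 1496 bp at chad, 564.5 bp at comp, 524 bp at hapln1, 434 bp at matn1, 379.5 bp at acan and 330 bp at ucma, against 569 bp over all stage 65 peaks.

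Over the 6 loci, 19 of 91 peaks had a fold of at least 4 (20.9%, exact Clopper-Pearson 95% interval 13.1% to 30.7%), and the interval holds the 29.7% of all stage 65 peaks. A width of at least 1 kb was reached by 17 of 91 peaks (18.7%, 11.3% to 28.2%), and this interval holds the 23.6% of all stage 65 peaks. The peaks past these limits were unevenly spread. At chad, 9 of 19 peaks reached a fold of 4 and 11 of 19 a width of 1 kb, and in the other 5 loci 10 and 6 of 72 peaks did. These shares were 47.4% (24.4% to 71.1%) and 57.9% (33.5% to 79.7%) at chad. In the other 5 loci they were 13.9% (6.87% to 24.1%) and 8.33% (3.12% to 17.3%). Of these intervals, only that of the fold at chad holds the matching share of all stage 65 peaks. The split at chad was made after its values were seen. Neighbouring peaks are not independent of each other, so these intervals are narrower than the true uncertainty.

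**Figure D2:**
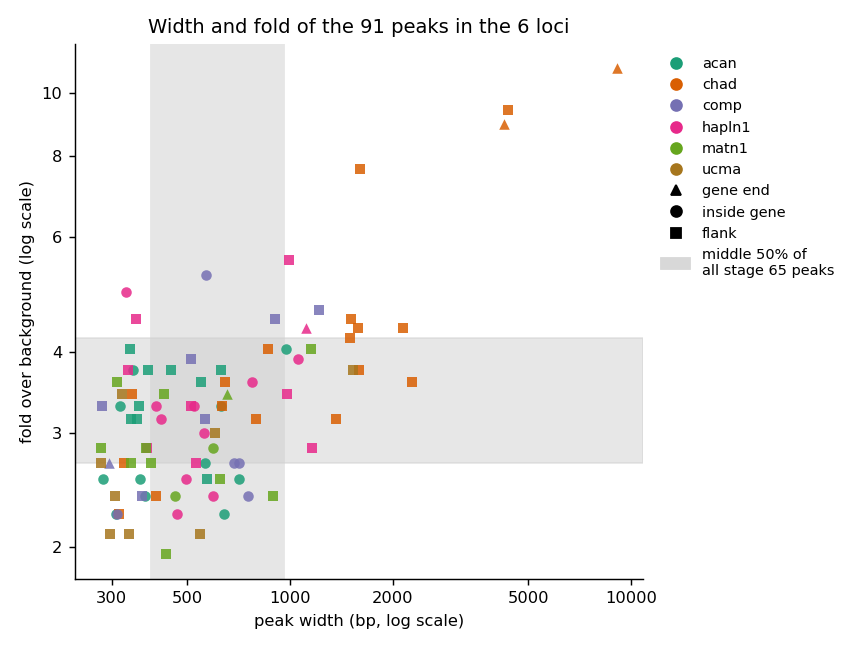
Width in bp and fold over background of each of the 91 peaks, both on log scales, coloured by locus and shaped by position, with bands for the middle 50% of all stage 65 peaks. Chad peaks alone lie beyond a width of 1528 bp or a fold of 5.54.

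By position, 5 of the 91 peaks were at a gene end (5.49%, interval 1.81% to 12.4%), 28 inside a gene (30.8%, 21.5% to 41.3%) and 58 in a flank (63.7%, 53.0% to 73.6%). When each peak was counted once for every coding gene whose locus it touched, the shares over all coding genes were 9.18% at a gene end, 37.3% inside and 53.5% in a flank. The chad locus had 0 peaks classed as inside and 17 of 19 in flanks. Leaving it out, after its values were seen, gave 4.17% at a gene end, 38.9% inside and 56.9% in a flank. The shares at the 6 loci depend on gene length, since the genes run from 7.32 kb for ucma to 78.1 kb for hapln1 while the flanks are of fixed length. The median fold was 4.34 at gene ends, 2.69 inside and 3.29 in flanks, and 3.29 over all stage 65 peaks. The gene-end value rests on 5 peaks, 2 of them at chad, which had no peak classed as inside. Without chad, a split made after its values were seen, the medians were 3.44 at gene ends (3 peaks), 2.69 inside and 3.14 in flanks. Fold by position was not measured over all coding genes.

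A peak at a gene end was called at 4 of the 6 genes: chad, comp, hapln1 and matn1. Among all coding genes 85.7% had one, so a count of 4 of 6 does not set these genes apart. Ordered by the highest gene-end fold, chad came first with 10.9 (8.58 to 13.7), then hapln1 with 4.34 (2.94 to 6.21), matn1 with 3.44 (2.21 to 5.14) and comp with 2.69 (1.63 to 4.22). The intervals of hapln1, matn1 and comp overlap, so their order is not settled by the depth, and the chad interval lies above all 3. The median over occupied coding genes was 4.34. Only chad had a peak at both ends, as did 45.2% of coding genes.

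The position of the summit changes this picture for chad. Requiring the summit itself to lie within 1 kb of an end left 3 of 6 genes, comp, hapln1 and matn1, against 75.4% of coding genes. At chad the summits of both gene-end peaks lay elsewhere, 1.58 kb outside the left end and 3.87 kb inside the right end. With a fold of at least 4 required, gene-end peaks remained at 2 of 6 genes, chad and hapln1, against 50.6% of coding genes.

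**Figure D3:**
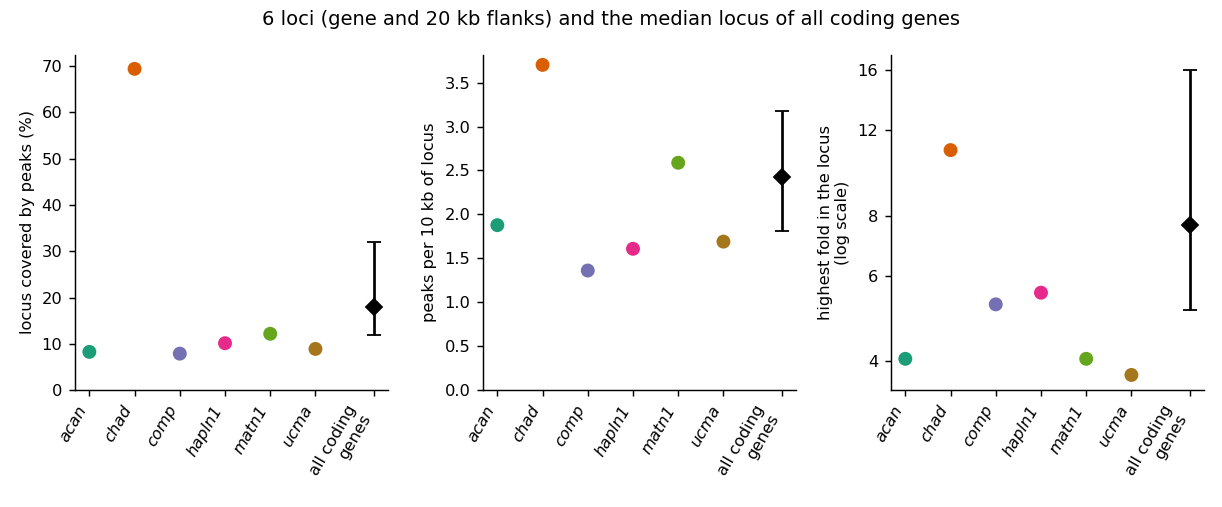
Percent of the locus covered by peaks, peaks per 10 kb and highest fold for each of the 6 loci (dots), beside the median and interquartile range over the loci of all coding genes (diamond and bar). Chad lies above the bar for coverage and peak density, and acan, comp, hapln1 and ucma below the median in all 3 panels.

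Aggrecan and its link protein, the partners of the hyaluronan aggregate, differed in the occupancy of their ends. The acan gene (chromosome 3, 109814104 to 109880610, 66.5 kb) had no gene-end peak. The nearest peak to its left end began 3239 bp inside the gene, at 109817343 to 109817650, with a fold of 2.25. On the right the nearest began 5186 bp outside, at 109885796 to 109886243, with a fold of 3.74. Inside the gene there were 11 peaks, or 1.65 per 10 kb, at percentile 27.5 of coding genes.

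The highest acan peak inside the gene lay at 109852829 to 109853802, 38.9 kb from the left end, with a pileup of 26 fragments and a fold of 4.04 (2.69 to 5.85). A peak of the same fold lay at 109900494 to 109900832, at the outer edge of the right flank. All 20 acan peaks had folds between 2.25 and 4.04, and none was as wide as 1 kb. Only 6.24% of coding genes had a lower highest fold in their locus, with ties split evenly. Acan and matn1 share that rank.

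The left flank of acan is occupied by hapln3, another link protein gene, whose annotated right end lies 7.21 kb away. Of the 6 left-flank peaks, 4 lay within hapln3 or at its end, including one at 109805676 to 109806304 with a fold of 3.74, which overlapped the window of the hapln3 right end. The other 2 lay between the genes, at 109808343 to 109808702 (fold 3.29) and at 109810247 to 109810794 (fold 3.59). The right flank holds no annotated coding gene, and its 3 peaks had folds of 3.14 to 4.04.

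At hapln1 (chromosome 1, 180812200 to 180890276, 78.1 kb) the left end was occupied by a peak at 180811650 to 180812763, 1114 bp wide, whose summit lay 164 bp outside the annotated end. Its pileup was 28 fragments and its fold 4.34. The right end had none, the nearest peak beginning 1218 bp outside. Inside the gene and away from the ends there were 10 peaks with folds of 2.25 to 4.94. The highest, at 180827956 to 180828285, had a fold of 4.94 (3.43 to 6.91) and lay within the long non-coding RNA gene LOC116407681, as did 2 other peaks. Reads at such sites cannot be assigned to either gene.

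The hapln1 peaks were spread unevenly along the gene. Between 180850413 and 180879873 there was a stretch of 29.5 kb without a peak, and 3.66% of coding genes touched a longer one. A longer gene can touch more such stretches, and hapln1, at percentile 90.1 for length, was not ranked among genes of its own length. The highest peak of the locus lay outside the gene, at 180900044 to 180901040, 10.6 kb beyond the right end, with a pileup of 36 fragments and a fold of 5.54 (3.92 to 7.61). That flank faces vcan, which encodes versican, a proteoglycan of the aggrecan family, 63.2 kb away. The left flank, towards edil3, held 4 peaks with folds of 2.69 to 3.44.

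The 2 genes whose proteins bridge fibrils and proteoglycans, comp and matn1, each had a single gene-end peak, on the left. At comp (chromosome 1, 107072942 to 107121070, 48.1 kb) it lay at 107073756 to 107074050, 295 bp wide, with a pileup of 17 fragments and a fold of 2.69. The highest comp peak lay deeper in the gene, at 107077663 to 107078228, 5.13 kb from the left end, with 34 fragments and a fold of 5.24 (3.68 to 7.26). Its interval overlaps that of the gene-end peak. The remaining 4 inside peaks had folds of 2.25 to 2.69. No peak was called over 15.8 kb of the gene, from 107088972 to 107104738.

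In the comp flanks the strongest peaks were on the far right, at 107134711 to 107135614 (fold 4.49) and 107137601 to 107138814 (fold 4.64, 1214 bp wide), 14.1 and 17.5 kb beyond the gene by summit. On the left a peak at 107069008 to 107069520 stood 3.47 kb outside the gene with a fold of 3.89. Comp had the lowest coverage of the 6 loci and the lowest peak density, at percentile 10.5 of coding genes.

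The matn1 gene (chromosome 2, 83123701 to 83133933, 10.2 kb) had its left end inside a peak at 83123090 to 83123742, with the summit 100 bp outside the annotated end, the closest of any of the 6 genes. This peak was 653 bp wide, with 22 fragments and a fold of 3.44. Inside the gene were 2 weaker peaks, at 83127281 to 83127741 (fold 2.40) and 83130489 to 83131082 (fold 2.84). The peak nearest the right end, at 83135665 to 83136098, had 12 fragments and a fold of 1.95, which are the lowest values of the whole stage 65 list.

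Most matn1 peaks belonged by position to its neighbour. All 7 left-flank peaks lay within laptm5 or at its end, a gene for a lysosomal membrane protein of blood cells whose annotation stops 2525 bp before matn1. The highest of them, at 83102881 to 83104032 with a fold of 4.04, crossed the 20 kb limit. Toward the right, where no coding gene lies in the flank, the 3 peaks had folds of 1.95 to 2.84. With 2.59 peaks per 10 kb but 12.2% coverage, matn1 was above the coding-gene median in peak density and below it in coverage.

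The chad gene (chromosome 10, 43848555 to 43859888, 11.3 kb), for the leucine-rich repeat protein chondroadherin, lies wholly within the annotated span of acsf2, a gene for an acyl-CoA synthetase. Its peaks can therefore not be assigned to either gene. A single peak at 43850354 to 43859458, 9105 bp wide, filled most of the gene, with 72 fragments at its summit and a fold of 10.9 (8.58 to 13.7). A further peak at 43845427 to 43849660, 4234 bp wide, covered the left end, with 59 fragments and a fold of 8.98 (6.87 to 11.5). Together they covered 90.1% of the gene, at percentile 98.1 of coding genes.

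Beyond the right end, a peak at 43862134 to 43866499 had 62 fragments, a fold of 9.43 (7.27 to 12.05) and a width of 4366 bp. A peak at 43874176 to 43875776, at the right end of acsf2, had 50 fragments and a fold of 7.64. The 3 highest chad peaks have overlapping intervals. The highest lies above the interval of the strongest peak of the other 5 loci, the hapln1 flank peak with 3.92 to 7.61. Left of the gene the highest flank peak, at 43830946 to 43833086, had a fold of 4.34. The longest stretch without a peak that touched chad was 1518 bp, and 93.8% of coding genes touched a longer one.

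High coverage extended past the chad locus. In the 20 bins of 10 kb that reach 100 kb to each side, coverage ran from 21.0% to 73.9%. The bins within 20 kb of the gene are the flanks of the locus itself, and the highest value is one of them. All 20 of 20 bins exceeded the 20.04% of chromosomes 1 to 10 as a whole, and around the other 5 genes 16 of 100 such bins did. The 20.04% is a mean, and the share of all 10 kb bins above it was not measured, so 16 of 100 cannot be called low. From 20 to 100 kb away, peaks covered 41.7% around chad, 15.0% around matn1, 13.2% around hapln1, 12.3% around acan, 11.2% around comp and 9.22% around ucma. Genes on chromosome 10 had a higher median coverage, 32.2%, than those on chromosome 1 (14.6%), 2 (15.9%) or 3 (18.3%). Chad stood at percentile 96.6 among the 1100 coding genes of its own chromosome. On their own chromosomes the other 5 stood between percentile 12.29 (comp) and percentile 31.3 (matn1), each higher than its rank among all coding genes. Whether base composition, copy number or mappability moved with this coverage was not tested.

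**Figure D4:**
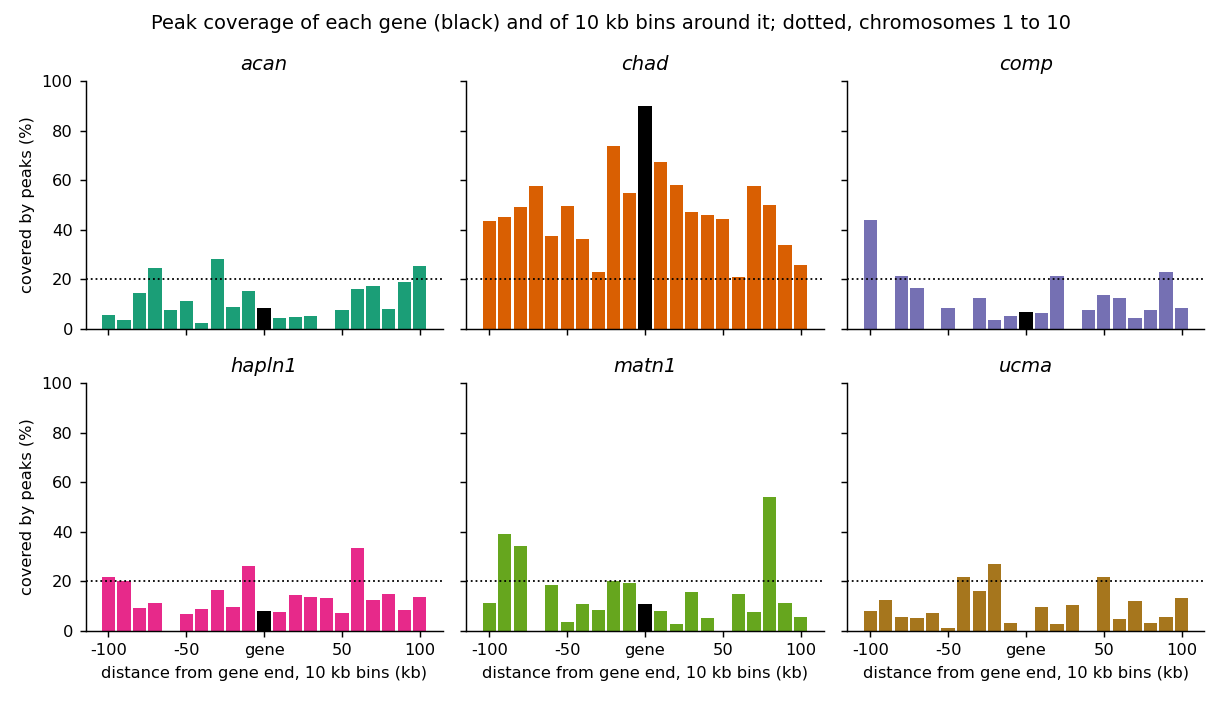
Percent of sequence covered by stage 65 peaks in each gene (black bar) and in 10 kb bins out to 100 kb from each gene end, with the 20.04% of chromosomes 1 to 10 as a dotted line. All bins around chad exceed that line, whereas most bins around the other 5 genes lie under it.

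The ucma gene (chromosome 3, 81866328 to 81873646, 7.32 kb), for a chondrocyte-secreted protein rich in vitamin K-dependent residues, was the emptiest. It had no peak in its span and none at its ends. A peak somewhere in the span was present in 92.0% of coding genes, and 5.62% of the 3772 coding genes of 5 to 10 kb lacked peaks both in the span and at the ends. The stretch without a peak ran from 81857833 to 81879068, 21.2 kb, and included the right end of phyh, 5.31 kb away, and the left end of mcm10, 2.28 kb away. A stretch longer than this touched 9.57% of coding genes.

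All 8 ucma peaks lay in neighbouring genes. In phyh, which encodes a peroxisomal hydroxylase, there were 5, of which the highest, at 81848253 to 81849780, had 24 fragments and a fold of 3.74 (2.45 to 5.50). In mcm10, a DNA replication gene, there were 3, with folds of 2.10 to 2.99. The highest fold of the ucma locus was at percentile 3.03 of coding genes. The least pileup of any called peak was 12 fragments, so a stretch without a peak can still hold cuts below that level. The narrowest called peak was 278 bp wide, and whether narrower sites lie in such a stretch was not tested.

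The limit of 20 kb was not a natural break. At the 12 outer edges of the loci the last peak inside had a median fold of 3.44 (range 2.55 to 4.64) and the first peak outside 3.82 (2.55 to 5.24), and 4 peaks crossed the limit.

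Genes related to the cartilage matrix were measured in the same way, from a list of 53 of which 52 matched the gene table. Besides matrix genes, the list holds 10 glycosaminoglycan synthesis genes, 2 aggrecan-cleaving proteases and 3 transcription factors. Every gene of those added groups had a gene-end peak, so the pooled share below exceeds that of the matrix genes alone. The pooled median fold and the pooled share by summit also exceed those of the matrix genes alone. A gene-end peak was present at 40 of 52 (76.9%), against 85.7% of coding genes, and the median of the highest gene-end fold among those occupied was 3.97, against 4.34. With the summit required within 1 kb of an end, 37 of 52 had one, against 75.4% of coding genes. The genes lost were fmod, has2 and sox5, so their gene-end folds below belong to summits farther away. Of the close relatives of the 6 genes, versican (vcan, fold 2.84) and brevican (bcan, 5.84) had one and neurocan (ncan) had none. The link protein genes hapln3 (4.49) and hapln2 (2.99) had one and hapln4 had none. Matrilin genes matn3 and matn4 (both 3.74) had one and matn2 had none. All 4 thrombospondin genes had one, the highest being thbs3 (14.7), thbs2 (3.74) and thbs1 (3.59).

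Leucine-rich repeat matrix genes, the class to which chad belongs, had a gene-end peak in 5 of 11, the lowest share of the 10 groups. These were led by bgn (3.74), fmod (2.99) and omd (2.84), and lum, prelp, ogn, dcn, aspn and kera had no gene-end peak. Several of them are neighbours and share flanks: epyc, kera, lum and dcn on chromosome 3, and aspn, omd and ogn on chromosome 4. They do not count as independent. Coverage was 3.83% at lum, 4.62% at dcn and 5.69% at kera, and neither lum nor kera had a peak in the gene. The chad locus, which it shares with acsf2, had 69.4%, more than any of these 11 genes, the highest of which was bgn with 28.3%. High coverage was not particular to chad in the wider list. Among the 52 matched genes adamts4 had more, with 77.0%, and the next were sox5 with 57.2% and thbs3 with 50.9%.

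Among small cartilage proteins 5 of 7 were occupied, with folds of 4.49 at scrg1 and 4.34 at both cnmd, which encodes chondromodulin, and cilp2. The calcification inhibitor mgp and the intermediate layer protein gene cilp had none, and mgp, like ucma, had no peak in its span. Cartilage collagen genes were occupied in 5 of 6, with 6.59 at col9a3, 3.44 at col11a2 and 2.84 at col2a1, and not at col9a1. The 3 groups of genes that build, cut and regulate the matrix had a gene-end peak in every listed member, which at these group sizes is near the 85.7% of all coding genes. Glycosaminoglycan synthesis genes had a gene-end peak in 10 of 10, led by the chondroitin polymerase gene chpf (8.23), the sulfate donor synthase papss2 (7.04) and the hyaluronan synthase has2 (6.29). The aggrecan-cleaving proteases adamts4 (11.8) and adamts5 (4.19) and the transcription factors sox9 (20.7), sox6 (16.6) and sox5 (7.79) all had one. These differences between groups were not tested.

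**Figure D5:**
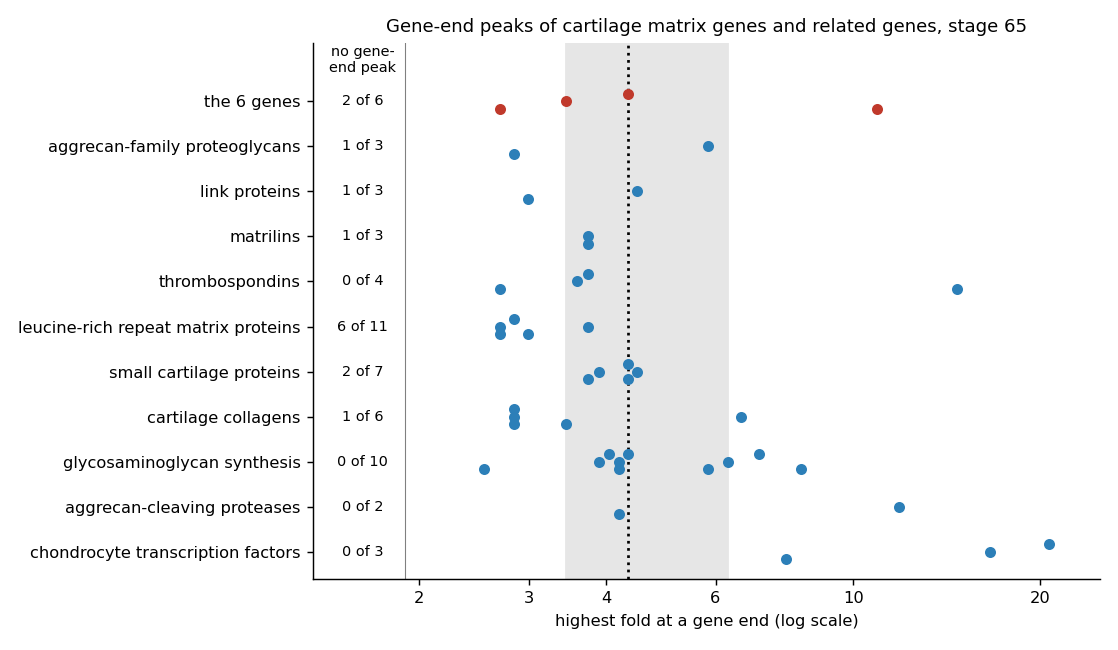
Highest fold at a gene end on a log scale for the 6 genes (red) and related genes by role (blue), with the number lacking a gene-end peak at the left and the median and interquartile range of occupied coding genes as a dotted line and band. Of the 4 occupied members only chad lies right of the band, while the 3 chondrocyte transcription factors all do. The summits of the chad and sox5 peaks lie more than 1 kb from the gene ends.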

How the data were processed

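Tissue was dissected, crushed and taken through Omni-ATAC, per the labels' protocols, whereas the series' design text speaks of laser capture. The submitters' processing notes name Bowtie2, Picard, MACS2 and Genrich but no roles. The build, filters, depth and any shift of reads were not given in the sources used here. In the deposited stage 65 list the authors give a fold (a ratio), −log10 p and −log10 q per peak. The deposited lists of stages 56 and 61 hold a signal (peak area) on other coordinates and were used only to check their extents and numbers. In the stage 65 list the last peak lay beyond the last coding gene on 10 of 10 chromosomes of the UCB_Xtro_10.0 table, which was used for annotation although the list names no build. Coordinates are 1-based.

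Folds under 20 were whole multiples of the step in 100% of peaks, within 0.01, with a pseudocount of 1. Peaks were assigned by an overlap of at least 1 bp with Python 3.11.15, pandas 2.3.3 and scipy 1.17.1. The assignment was tested on narrow simulated peaks placed clear of the class limits. Wide peaks, peaks across the 20 kb limit and assignment by summit were not simulated. Genes were named by a rule: the 6 members, and of each related group those without a gene-end peak and up to 3 with the highest fold. Members and lists were chosen with earlier results of these data known. Alternatives were other windows, flanks, summits and stricter peaks. No sequence is shown, since none was used here.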

Additional observations from a re-analysis of the deposited data

How the results depend on the processing

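No paired analysis was possible because each stage has 1 library and the results come from no test. Of the other settings tried, 2.5 kb windows kept 4 of 6 genes with a gene-end peak (95.2% of coding genes), peaks assigned by summit 3 (75.4%), the upper 50% of peaks by −log10 q 3 (69.4%), and a fold of at least 4 kept 2 (50.6%). The highest gene-end fold of chad was 0 by summit, because both summits lie over 1 kb from the ends. By construction, the 91 peaks became 166 with 50 kb flanks and 46 in the upper 50%, whose median fold was 3.74. The gene-end share was 14.3% with 2.5 kb windows, and with 10 kb flanks the inside and flank shares were both 45.9%. In the upper 50%, coverage was 4.46% at acan, 3.95% at comp, 6.25% at hapln1, 3.43% at matn1, 3.91% at ucma and 63.1% at chad. Removing weaker peaks lowers coverage wherever they lie, and coverage over all coding genes under this cut is not given here. With 10 kb flanks ucma coverage was 4.53%. Related genes with a gene-end peak numbered 20 of 52 at a fold of at least 4, against 50.6% of coding genes. The matrix genes among them were only bcan, hapln3, thbs3, cnmd, cilp2, scrg1 and col9a3. The others belong to the added synthesis, protease and transcription factor groups, so this pooled share also exceeds that of the matrix genes alone. Leaving out the chad locus, a setting chosen after seeing the data, gave a median fold of 3.07 and 4.17% of peaks at gene ends. At this depth and background, no called peak had a pileup under 12 fragments or a width under 278 bp.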

Other observations

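In this gene table each link protein gene lies beside a proteoglycan gene of the aggrecan family, with 0 coding genes between them. Peak coverage of the space between ran from 4.80% to 47.4%. Between acan and hapln3, 7.21 kb on chromosome 3, there were 2 peaks with a highest fold of 3.59 and 12.6% coverage. Between hapln1 and vcan, 63.2 kb on chromosome 1, there were 14 peaks with a highest fold of 5.54 and 14.7% coverage. Between bcan and hapln2, 10.7 kb on chromosome 8, there were 3 peaks with a highest fold of 22.2 and 47.4% coverage. Between hapln4 and ncan, 19.1 kb on chromosome 1, there were 2 peaks with a highest fold of 3.44 and 4.80% coverage. These 4 spaces were compared as values only, and no test was made.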
